A study of Mus musculus with 2 samples.

Results

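The 3 bone morphogenetic protein (BMP) ligands Bmp4, Bmp6 and Bmp7, the 3 receptors Bmpr1a, Bmpr1b and Bmpr2, and the 4 inhibitors of differentiation Id1 to Id4 were examined in mouse brain neural stem cells. They are the rows of the deposited count table that carry these 10 gene symbols, 10 of 19595 genes. They were picked by gene symbol, with earlier results of these data known. The study compared cells with Ccdc25 knocked down (labelled sh1, genotype KO) with control cells (labelled psicor, genotype WT). Both groups are brain neural stem cells of the ICR strain at embryonic day 13, and total RNA was sequenced. The labels give neither the knockdown vector, nor the culture conditions, nor whether animals were pooled. The design text speaks of triplicates, but the table holds 1 column of counts per group. Every difference below is therefore between 2 libraries, has no replicate check and was not tested.

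BMPs are secreted dimers of the TGF-beta family. They bring together type I and type II receptor kinases on the cell surface, the type II kinase activates the type I kinase, and this phosphorylates Smad1, Smad5 and Smad9, which enter the nucleus with Smad4. Id genes are among the best known direct targets of these Smads. Id proteins have a helix-loop-helix domain without a DNA-binding region, so they pair with E proteins and other basic helix-loop-helix (bHLH) factors and keep them from DNA. In cultured neural precursors, BMPs are known for favouring astrocytes over oligodendrocytes and neurons.

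The upstream sequences of the 3 members higher by 2-fold or more in the knockdown library are shown first, because the counts themselves carry no sequence. Each is the 250 bases before the RefSeq start site, in build GRCm38.p6, 5′ to 3′ on the gene's strand, and none of these bases lies in an exon annotated by GENCODE M21. Bmp4 is read from chr14:46390670-46390919, minus strand, Id4 from chr13:48260866-48261115, plus strand, and Bmpr1b from chr3:141982265-141982514, minus strand. Bmpr1b has 3 such entries, and the only one whose first transcribed bases match a GENCODE transcript is shown. Its window lies inside the table's span of Bmpr1b, whose 5′ end on the minus strand is at 142169425. It is thus upstream of an internal start and not of the whole gene. The first bases after the RefSeq start of Id4 were found in no GENCODE transcript of the gene, and the table's gene start lies downstream at 48261228. Capitals mark matches to GGCGCC, a GC-rich Smad-binding motif, to CAGAC or its complement GTCTG, the core of the Smad-binding element, and to the E-box CANNTG, the site bound by bHLH factors.
Bmp4: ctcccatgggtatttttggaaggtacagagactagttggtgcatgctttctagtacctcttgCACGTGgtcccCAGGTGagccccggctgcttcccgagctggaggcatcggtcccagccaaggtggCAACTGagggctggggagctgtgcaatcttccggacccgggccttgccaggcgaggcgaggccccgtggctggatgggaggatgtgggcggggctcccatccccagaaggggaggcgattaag
Id4: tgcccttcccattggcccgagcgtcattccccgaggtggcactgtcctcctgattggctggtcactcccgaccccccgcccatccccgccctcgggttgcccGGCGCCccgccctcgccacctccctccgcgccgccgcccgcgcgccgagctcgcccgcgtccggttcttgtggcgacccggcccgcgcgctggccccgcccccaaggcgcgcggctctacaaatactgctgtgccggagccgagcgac
Bmpr1b: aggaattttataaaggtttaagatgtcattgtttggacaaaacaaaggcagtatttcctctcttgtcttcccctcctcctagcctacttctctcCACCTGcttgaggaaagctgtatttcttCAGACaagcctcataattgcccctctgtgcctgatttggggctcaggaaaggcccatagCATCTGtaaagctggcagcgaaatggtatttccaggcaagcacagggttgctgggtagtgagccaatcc

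The window of Bmp4 held 3 E-boxes and no match to either Smad motif. The window of Id4 held 1 GGCGCC and neither of the other motifs, and that of Bmpr1b held 1 CAGAC and 2 E-boxes. Among members within 2-fold, the windows of Bmpr1a, Bmpr2 and Id2 also held 1 GGCGCC each, that of Id2 held 1 E-box and that of Id3 held 2 matches to CAGAC or its complement. The window of Bmp6 held 1 match to CAGAC or its complement and 2 E-boxes. No 2 matches overlapped in these windows, and both strands were searched. Among 32851 windows of the same length in the RefSeq table, 9.59% held GGCGCC, 42.2% held CAGAC or its complement, and 66.2% held an E-box, with 12.2% holding 3 or more. The GC content of the windows was 63.2% for Bmp4, 75.6% for Id4 and 46.8% for Bmpr1b, against a median of 52.4%. Sequences before the RefSeq starts of Bmpr1a, Bmpr2, Bmp6, Id2 and Id3 overlap annotated exons and are not shown. A match is a description of letters and not of binding.

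In total, 16058407 counts fell on genes in the knockdown library and 16549682 in the control library. Levels are given as CPM, a gene's count over the library's total after TMM scaling. Brackets give exact 95% intervals that cover counting error only, since PCR copies of a fragment are not separate molecules. Ccdc25, the targeted gene, had 411 counts in the knockdown library and 553 in the control library, or 26.1 and 32.8 CPM. Its ratio was 0.794 (0.697 to 0.904), so the direction was that of the labels and the size was below 2-fold. Its log2 fold was -0.332, and 47.1% of genes averaging 1 CPM or more had a smaller absolute log2 fold. A difference of this size between 2 libraries does not by itself show the knockdown. All 11 neural stem cell markers examined were above 1 CPM on average, among them Sox2 with 476 CPM in the knockdown library and 288 CPM in the control library, and Nes with 806 and 708 CPM in the same order. An average of 1 CPM or more over both libraries was reached by 14158 genes. Of these, 7.64% were higher by 2-fold or more in the knockdown library and 7.76% were lower by as much. The median log2 fold over these genes was -0.0042.

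All 10 members had a mean of at least 1 CPM. In the knockdown library 3 of them, Bmp4, Bmpr1b and Id4, were higher by 2-fold or more, beside the 7.64% of all genes. Bmp6 alone was at least 2-fold lower, beside the 7.76%, and 6 members lay within 2-fold, beside 84.6% of all genes. Each of the 3 classes held 1 of the higher members. The median log2 fold of the 10 members was 0.34. By the counting interval, 6 members were above a ratio of 1, against 33.2% of all genes, 2 were below it, against 33.6%, and 2 spanned it, against 33.2%. With so many genes past counting error, the interval alone does not set a member apart. The authors' deposited table flags 4 of the members as significant, Bmp4, Bmpr1b, Id4 and Bmp6, and 18.7% of all its genes, with no named test. The flagged genes there all differed by more than 2-fold in CPM.

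**Figure D1:**
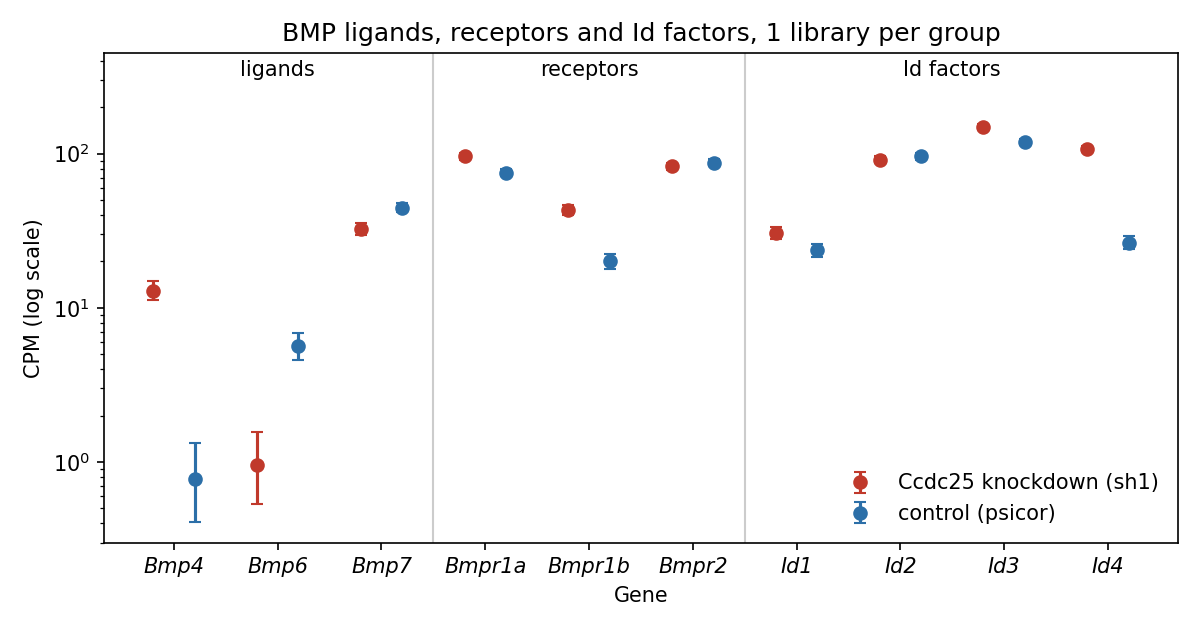
CPM on a log axis for each of the 10 genes in the Ccdc25 knockdown library (red, left) and the control library (blue, right), 1 library per group, with bars for exact 95% Poisson intervals. Bmp4, Bmpr1b and Id4 lie higher in the knockdown library and Bmp6 lies lower, with intervals far apart, while Id2 and Bmpr2 overlap.

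The ligands differed in opposite directions between the libraries. Bmp4 (ENSMUSG00000021835, chromosome 14, 46383520 to 46390669, minus strand), a ligand of neural tube patterning and of glial fate, had 204 counts in the knockdown library and 13 in the control library. These are 12.9 CPM (11.2 to 14.8) and 0.771 CPM (0.411 to 1.32), a ratio of 16.8 (9.59 to 32.0). The knockdown library was thus high and the control library near the floor of 3 counts, which is 0.178 CPM there. Bmp4 stood at rank 49 of 14158 genes from the highest fold, and 99.5% of genes had a smaller absolute log2 fold than its 4.02. It passed the expression minimum through the knockdown library alone. Bmp4 has 89 exonic bases in common with Gm15217 on the other strand.

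Bmp6 (ENSMUSG00000039004, chromosome 13, 38345107 to 38500302, plus strand), best known as the liver signal that controls hepcidin and iron, had 15 counts in the knockdown library and 95 in the control library. These are 0.951 CPM (0.532 to 1.57) and 5.64 CPM (4.56 to 6.89), a ratio of 0.169 (0.0909 to 0.293). Here the control library was the high one, and Bmp6 stood at rank 120 from the lowest fold. It passed the expression minimum through the control library alone. Of the 663 genes that passed it while lying under 1 CPM in one library, as Bmp4 and Bmp6 did, 497 were at least 2-fold apart. Bmp6 shares 224 exonic bases with Txndc5 on the opposite strand, which had 2348 counts in the knockdown library and 2963 in the control library. Whether strand was used in counting is not given in the labels, so the Bmp6 value is uncertain by any reads of Txndc5 assigned to it.

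Bmp7 (ENSMUSG00000008999, chromosome 2, 172868012 to 172940321, minus strand), a ligand of kidney, eye and meningeal development, was the most abundant of the 3. It had 512 counts in the knockdown library and 754 in the control library, or 32.5 CPM (29.7 to 35.4) and 44.7 CPM (41.6 to 48.1). The ratio was 0.726 (0.647 to 0.813), lower in the knockdown library and within 2-fold, and 59.4% of all genes had a smaller absolute log2 fold.

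Levels of different genes are set side by side only per kilobase (kb) of annotated exon, taking all GENCODE exons of a gene together. In the knockdown library Bmp7 had 8.08, Bmp4 5.75 and Bmp6 0.244 CPM per kb. In the control library Bmp7 had 11.1, Bmp6 1.45 and Bmp4 0.343 CPM per kb. Bmp4 thus made up 40.9% of the summed ligand level per kb in the knockdown library and 2.66% in the control library, Bmp6 1.73% and 11.2%, and Bmp7 57.4% and 86.2%. The summed level per kb was 14.1 CPM in the knockdown library and 12.9 CPM in the control library, a ratio of 1.09. Summed as counts without length, the ligands had a ratio of 0.906 (0.820 to 1.001), so the direction of the total depends on whether length is taken into account.

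**Figure D2:**
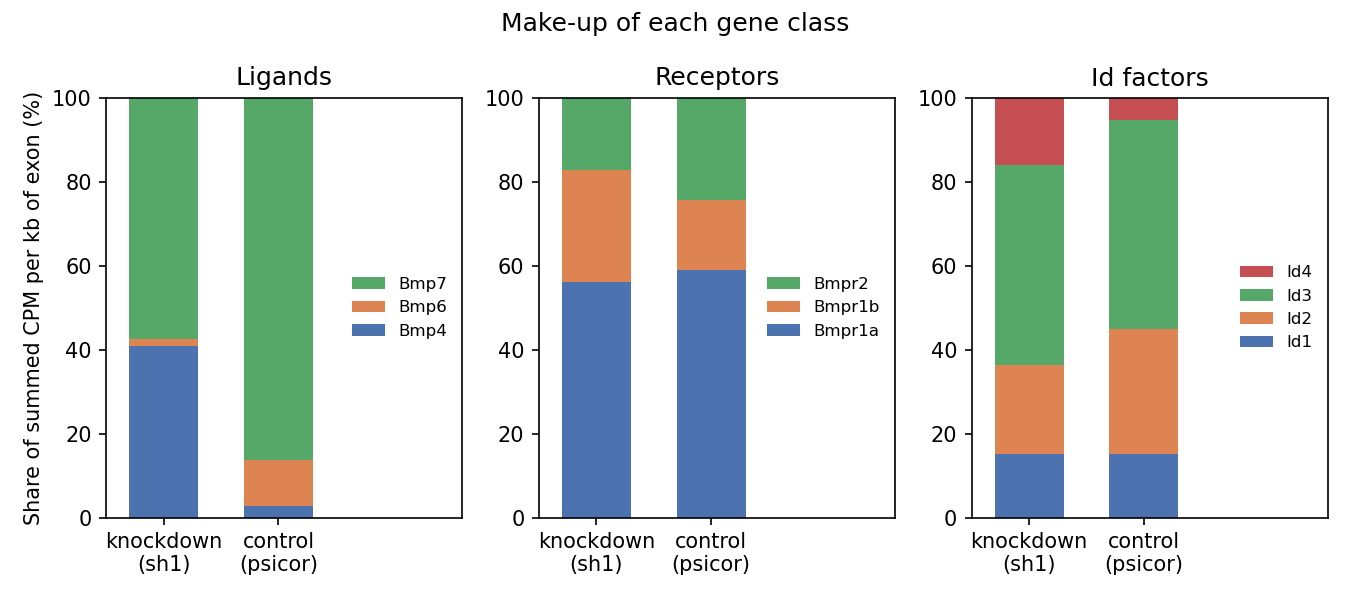
Share of each gene in the summed CPM per kb of exon of its class, in percent, for the knockdown library (left bar) and the control library (right bar). Bmp4 takes 40.9% of the ligand level in the knockdown library and 2.66% in the control library, Bmpr1b 26.9% and 16.7% of the receptor level, and Id4 16.0% and 5.17% of the Id level.

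Of the receptors, the type I kinase Bmpr1b was higher in the knockdown library and the other 2 lay within 2-fold. Bmpr1b (ENSMUSG00000052430, chromosome 3, 141837136 to 142169425, minus strand), also called ALK6 and known for its part in cartilage and in neural precursors, had 682 counts in the knockdown library and 337 in the control library. These are 43.2 CPM (40.1 to 46.6) and 20.0 CPM (17.9 to 22.3), a ratio of 2.16 (1.90 to 2.47). The interval includes 2, so counting error alone leaves it on either side of the 2-fold threshold. Among all genes, 87.0% had a smaller absolute log2 fold than its 1.11.

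Bmpr1a (ENSMUSG00000021796, chromosome 14, 34410734 to 34503341, minus strand), the widely expressed type I kinase ALK3, had 1515 counts in the knockdown library and 1271 in the control library. These are 96.1 and 75.4 CPM, a ratio of 1.27 (1.18 to 1.37), somewhat higher in the knockdown library, and 49.0% of genes had a smaller absolute log2 fold. Bmpr1a shares 290 exonic bases with the antisense gene Gm17110. Bmpr2 (ENSMUSG00000067336, chromosome 1, 59763400 to 59879014, plus strand), the type II kinase, had 1307 counts in the knockdown library and 1473 in the control library. These are 82.9 and 87.4 CPM, and the ratio of 0.948 (0.879 to 1.02) was not distinguishable from 1 by counting error.

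Per kb of exon, the order of the receptors differed between the libraries. Bmpr1a led in both, with 15.1 CPM per kb in the knockdown library and 11.9 in the control library. Bmpr1b came next in the knockdown library with 7.25 CPM per kb, ahead of Bmpr2 with 4.61. In the control library Bmpr2 came next with 4.86, ahead of Bmpr1b with 3.35. Of the type I receptor level per kb, Bmpr1b made up 32.4% in the knockdown library and 22.0% in the control library. The exons of Bmpr2 span 17983 bases in all, and how far its level per kb depends on the transcripts used was not tested.

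Among the Id factors, Id4 was higher in the knockdown library and Id1, Id2 and Id3 lay within 2-fold. Id4 (ENSMUSG00000021379, chromosome 13, 48261228 to 48266026, plus strand), the Id factor of radial glia and adult neural stem cells, had 1698 counts in the knockdown library and 446 in the control library. These are 108 CPM (103 to 113) and 26.5 CPM (24.1 to 29.0), a ratio of 4.07 (3.66 to 4.53) at rank 277 from the highest fold. Id4 shares 82 exonic bases with the antisense gene A330033J07Rik, which had 7 counts in the knockdown library and 0 in the control library. It shares another 171 bases with Gm49291, also on the opposite strand, with 11 and 0 counts in the same order. The counts of both partners are small beside those of Id4.

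Id1 (ENSMUSG00000042745, chromosome 2, 152736251 to 152737410, plus strand), the Id gene most often used to read BMP signalling, had 481 counts in the knockdown library and 397 in the control library. These are 30.5 CPM (27.8 to 33.4) and 23.6 CPM (21.3 to 26.0), a ratio of 1.29 (1.13 to 1.48). Id3 (ENSMUSG00000007872, chromosome 4, 136143497 to 136145755, plus strand), which is often expressed with Id1 in dividing progenitors and vessels, had 2345 counts in the knockdown library and 2002 in the control library. These are 149 CPM (143 to 155) and 119 CPM (114 to 124), a ratio of 1.25 (1.18 to 1.33). Both were slightly higher in the knockdown library, and among the 14158 genes past the minimum 51.4% had a smaller absolute log2 fold than Id1 and 46.2% a smaller one than Id3.

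Id2 (ENSMUSG00000020644, chromosome 12, 25093799 to 25097140, minus strand), known in neural precursors for holding back neuronal and oligodendrocyte differentiation, had 1441 counts in the knockdown library and 1619 in the control library. These are 91.4 CPM (86.7 to 96.2) and 96.1 CPM (91.4 to 101), and the ratio of 0.951 (0.885 to 1.02) was not distinguishable from 1 by counting error. Summed over Id1, Id2 and Id3, the ratio was 1.13 (1.09 to 1.19).

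Per kb of exon, Id3 had the highest level of the 4 in both libraries, with 83.0 CPM per kb in the knockdown library and 66.3 in the control library. Id2 came next with 37.5 and 39.4 CPM per kb in the same order. Id4 and Id1 had 28.0 (26.7 to 29.3) and 26.3 (24.0 to 28.8) CPM per kb in the knockdown library, with intervals that overlap. In the control library they were apart, with 6.88 (6.25 to 7.54) CPM per kb for Id4 and 20.3 (18.4 to 22.4) for Id1. Id4 made up 16.0% of the summed Id level per kb in the knockdown library and 5.17% in the control library. Id2 made up 21.4% and 29.6%, Id3 47.5% and 49.9%, and Id1 15.0% and 15.3%. The summed level per kb was 175 CPM in the knockdown library and 133 CPM in the control library, a ratio of 1.31.

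**Figure D3:**
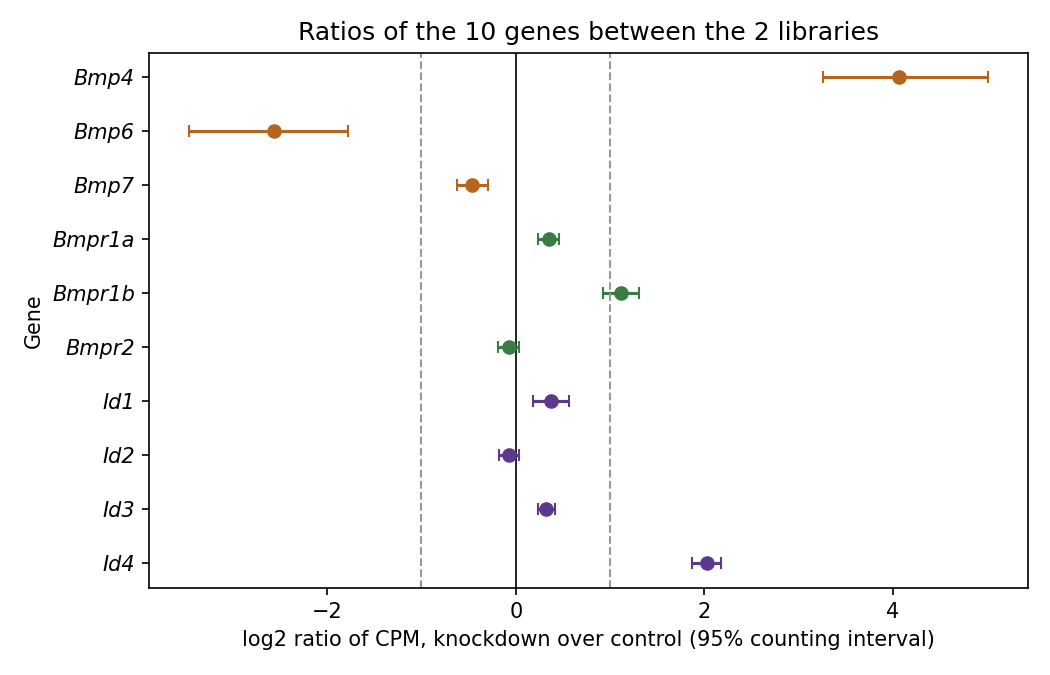
Log2 ratio of CPM, knockdown over control, for the 10 genes with exact 95% counting intervals, ligands in brown, receptors in green and Id factors in purple, and dashed lines at 2-fold. Bmp4 at 16.8-fold and Id4 at 4.07-fold lie to the right, Bmp6 at a ratio of 0.169 to the left, and the interval of Bmpr1b crosses the 2-fold line.

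The 10 genes lie on 7 chromosomes, with Bmp4 and Bmpr1a on chromosome 14, Bmp6 and Id4 on chromosome 13, and Bmp7 and Id1 on chromosome 2. On both sides of each member, the nearest gene above the expression minimum that does not overlap the member was looked up. Genes that overlap a member, such as Txndc5 with Bmp6, were thus left out. The comparison was added after the members' values were seen. Of these 20 neighbours 19 lay within 2-fold, beside 84.6% of all genes. The exception was Glud1, a glutamate dehydrogenase next to Bmpr1a, with 12048 counts in the knockdown library and 3097 in the control library and a ratio of 4.16. Cdkn3, a neighbour of Bmp4 at 369872 bases, had a ratio of 0.594. Rnf144b and Zfp169, the neighbours of Id4 at 1013237 and 221621 bases, had ratios of 1.87 and 1.07.

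The rest of the pathway was described from lists of textbook members. Of 17 other BMP and GDF ligands, 5 passed the expression minimum. Of these, 3 were at least 2-fold lower in the knockdown library, beside 7.76% of all genes, and 0 were higher. The median log2 fold was -1.05 over these 5, -0.28 over the 7 listed genes without a minimum, and -0.14 with a minimum of 10 CPM, which leaves Gdf11 alone. Gdf10, a BMP-related ligand also called BMP3B, had 14 counts in the knockdown library and 114 in the control library, a ratio of 0.131 (0.0695 to 0.229). Bmp3, an unusual BMP that opposes the others in bone, had 21 and 47 counts in the same order and a log2 fold of -1.05, and the stress-induced Gdf15 28 and 66 counts and -1.13. Gdf11, the most abundant in CPM, had a ratio of 0.908 (0.800 to 1.03). Bmp2, the closest relative of Bmp4, had 11 counts in the knockdown library and 10 in the control library and did not pass the minimum.

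Of 22 secreted antagonists and modulators 15 passed the minimum. Of these 15, 1 was at least 2-fold higher and 4 at least 2-fold lower, beside 7.64% and 7.76% of all genes. The median log2 fold of the 15 was -0.19. Bmper, which binds BMPs outside the cell, had 615 counts in the knockdown library and 305 in the control library, a ratio of 2.15 (1.88 to 2.48). The antagonists Sostdc1 and Chrdl1 had log2 folds of -1.73 and -1.22, and the microfibril protein Fbn1 had -1.20. Fbn1 has 2442 exonic bases in common with an opposite-strand gene. Noggin (Nog) and chordin (Chrd), the classic antagonists of Bmp4, were named after their values were seen, with ratios of 1.35 (1.09 to 1.67) and 1.84 (1.46 to 2.34). Bmp1, a protease that cleaves chordin and the most abundant of the list in CPM, had 191 CPM in the knockdown library and 110 CPM in the control library.

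Among 15 other receptors and co-receptors, 10 passed the minimum, and the median log2 fold of these 10 was -0.21. In the knockdown library 1 of them was at least 2-fold higher and 2 at least 2-fold lower, beside 7.64% and 7.76% of all genes. The co-receptor Rgma, the most abundant in CPM, had 645 CPM in the knockdown library and 292 CPM in the control library, a ratio of 2.21 (2.13 to 2.28). Its relative Rgmb had 10.2 and 23.0 CPM in the same order, a ratio of 0.445 (0.368 to 0.536). The endothelial co-receptor Eng had 22 and 79 counts and a log2 fold of -1.73. Rgma shares 258 exonic bases with an antisense gene and Eng 61 with the opposite-strand gene Fpgs, so the values of both are uncertain if strand was not used.

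All 6 receptor-regulated and common Smads, the signal carriers inside the cell, passed the minimum and lay within 2-fold, as did 84.6% of all genes. Their median log2 fold of 0.038 joins Smad1, Smad5 and Smad9, all above the control library, with Smad2, Smad3 and Smad4, all below it. Smad1, Smad2, Smad3 and Smad4, named after their values were seen, had ratios of 1.20, 0.797, 0.801 and 0.939. The interval of Smad4 spanned 1. Smad9 had 34 counts in the knockdown library and 19 in the control library, and its ratio of 1.91 had an interval that includes 2 (1.06 to 3.55). Smad5, the most abundant in CPM, had 127 CPM in the knockdown library and 113 CPM in the control library. All 13 inhibitory Smads and other intracellular inhibitors also lay within 2-fold, with a median of -0.030, led in CPM by the receptor-binding Fkbp1a with 400 and 537 CPM in the same order. The inhibitory Smad6 and Smad7, themselves BMP target genes, were named after their values were seen. Smad6 had 29 counts in the knockdown library and 32 in the control library, a ratio of 0.968 (0.565 to 1.65), and Smad7 129 and 99 counts, a ratio of 1.39 (1.06 to 1.83).

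Of 11 other genes known as BMP or Smad targets 6 passed the minimum. By 2-fold or more, 1 was higher and 1 lower, beside 7.64% and 7.76% of all genes. The median log2 fold of the 6 was 0.17. Hes5, also a Notch effector, had 720 counts in the knockdown library and 232 in the control library, a ratio of 3.32 (2.86 to 3.86), and has 433 exonic bases in common with an opposite-strand gene. Junb, also an immediate early gene, had 635 and 1593 counts in the same order, a ratio of 0.426 (0.388 to 0.467), and shares 173 exonic bases with Prdx2 on the opposite strand. Hey1, the most abundant in CPM, lay just inside the threshold with a ratio of 1.99 (1.84 to 2.15).

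The partners of the Id proteins differed among themselves. Of 15 E proteins and bHLH factors 12 passed the minimum. Of the 12, 2 were at least 2-fold higher and 3 at least 2-fold lower, beside 7.64% and 7.76% of all genes. The median log2 fold of the 12 was 0.24, and it was the same with genes at 0 placed at their bound. The 3 E proteins, the common dimer partners that Id proteins bind, lay within 2-fold and are named with their values in view. Tcf3 had a ratio of 1.15 (1.12 to 1.19), Tcf4 1.26 (1.21 to 1.32) and Tcf12 1.21 (1.15 to 1.27). Olig1, the most abundant of the list in CPM, had a ratio of 1.39 (1.37 to 1.41). The proneural factor Neurog2 had 611 counts in the knockdown library and 22 in the control library, a ratio of 29.7 (19.4 to 47.7). Nhlh1, a bHLH factor of young neurons, had 88 and 0 counts in the same order, at least 31.3-fold higher against a floor of 3 counts in the control library. The neuronal factors Neurod6 and Bhlhe22 had log2 folds of -2.06 and -2.42, and Nhlh2, with 3 and 41 counts, had a ratio of 0.0782 (0.0155 to 0.245).

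Of 10 genes for TGF-beta and activin ligands, inhibin and latent TGF-beta binding proteins, 9 passed the minimum. Of these 9, 1 was at least 2-fold higher and 3 at least 2-fold lower, beside 7.64% and 7.76% of all genes. The median log2 fold of the 9 was 0.14, and their mean was -0.25. Ltbp3, a latent TGF-beta binding protein, had a ratio of 3.76 (3.43 to 4.13) and is uncertain if strand was not used. Tgfb1, Tgfb3 and the activin subunit Inhba were low in both libraries, with log2 folds of -1.51, -1.18 and -2.11, and Tgfb3 has exonic bases in common with 2 opposite-strand genes. Ltbp4, the most abundant in CPM, had a ratio of 1.26 (1.18 to 1.35).

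**Figure D4:**
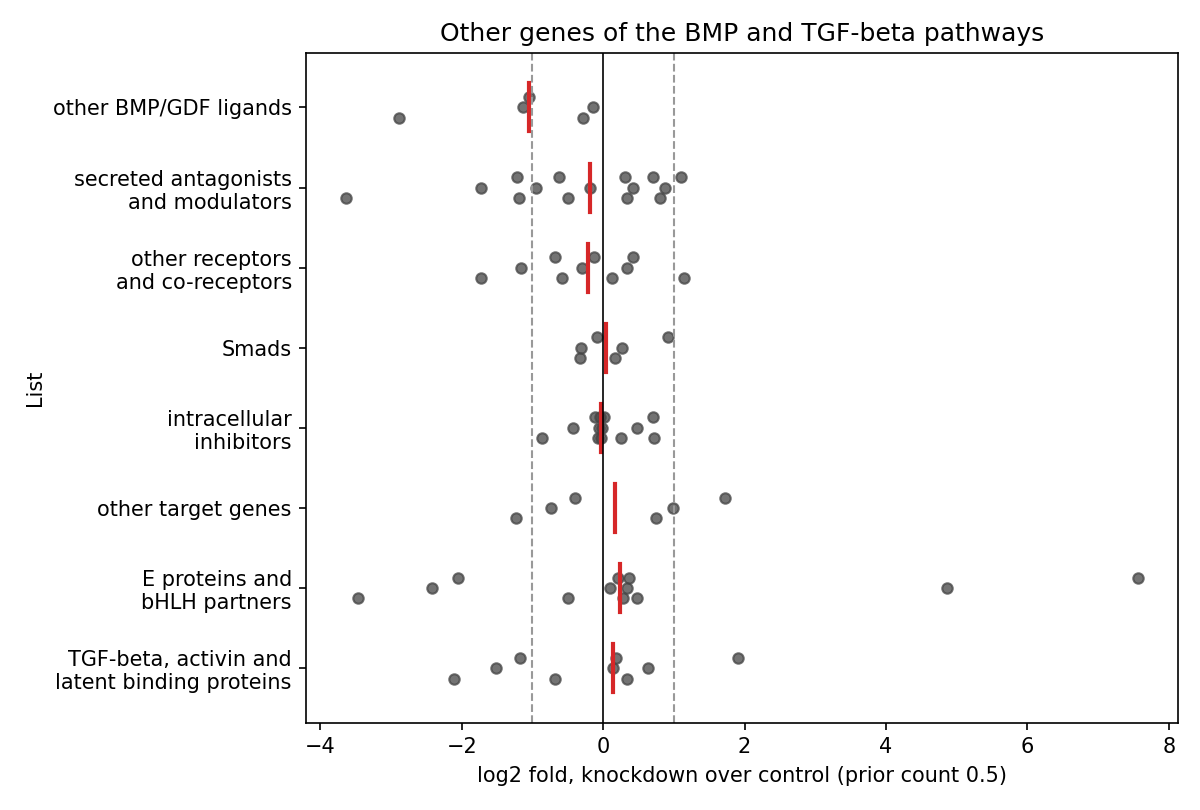
Log2 fold, knockdown over control, of every other pathway gene averaging 1 CPM or more (points) by list, with the median of each list as a red line and dashed lines at 2-fold. The 6 Smads and 13 intracellular inhibitors all lie between the dashed lines, and the extracellular and bHLH lists extend beyond them on at least one side.

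Markers of cell types that such cells could hold also differed between the libraries, and their part in the values of the 10 genes was not tested. In bulk RNA, fewer cells of a type and less RNA per cell cannot be told apart. Of 9 astrocyte markers 6 were higher by 2-fold or more in the knockdown library and 0 lower, with a summed level of 6006 CPM in the knockdown library and 649 CPM in the control library, led by Apoe and Aldoc. Of 11 oligodendrocyte lineage markers 8 were higher by as much and 0 lower, with 5325 and 3013 CPM in the same order, led by Olig1 and Olig2. Olig1 with 2432 and 1751 CPM and Olig2 with 1401 and 1087 CPM made up most of both sums. The median log2 fold of the 11 markers was 2.94. Of 11 neural stem cell markers 2 were higher by 2-fold or more and 0 lower, with 8838 and 6750 CPM, led by Vim and Fabp7. Of 10 neuron markers 8 were lower by 2-fold or more and 0 higher, with 1198 and 2788 CPM, led by Tubb3 and Map2. Over all genes averaging 1 CPM or more, 7.64% were higher by as much and 7.76% lower.

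Markers of the other cell types were lower in sum for 3 lists and higher for 2. Of 11 markers of meninges and mesenchyme, which make several BMPs, 7 passed the minimum. In the knockdown library 6 of these 7 markers were at least 2-fold lower, beside 7.76% of all genes. The sum over the 11 markers was 42.4 CPM in the knockdown library and 336 CPM in the control library, led by Acta2 and Col1a1. Lum had 0 counts in the knockdown library and 27 in the control library. The 9 endothelial markers, of which 6 were listed, summed to 2.66 and 5.52 CPM in the same order, led by Kdr and Egfl7. Cdh5 had 0 counts in the knockdown library and 7 in the control library, below the minimum. The 9 microglia and macrophage markers summed to 12.2 and 37.3 CPM, led by Cd68 and Lyz2. Csf1r, Cx3cr1, Tmem119 and Ptprc were at 0 in the knockdown library. In the control library they had only 21, 8, 6 and 11 counts, and none of them passed the minimum. The 5 pericyte markers, of which 3 were listed, summed to 5.77 and 1.96 CPM, led by Pdgfrb and Rgs5. Pdgfrb had 81 counts in the knockdown library and 19 in the control library, and Rgs5 had 7 and 8. The median log2 fold over the 3 listed pericyte markers was -0.085, so the higher sum rests on Pdgfrb. The 7 markers of choroid plexus and ependyma, of which 5 were listed, summed to 148 and 85.7 CPM, almost all of it Foxj1, with Otx2 next. Otx2 was lower, with 42 counts in the knockdown library and 73 in the control library. The median log2 fold over the 5 listed was -0.69, so this higher sum rests on Foxj1.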

How the data were processed

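RNA of 1 Ccdc25 knockdown and 1 control library was compared, grouped by the titles in the labels. The authors deposited 1 table that gives, per the file headers, raw counts of each gene in both libraries. It also holds normalised values, which are CPM made from these counts by the authors, a count of 0 being replaced by 0.5, and a fold change and its log2 made from those CPM. The deposited p-values come with no named test and were not used. The adjusted p-value lies below the p-value for 11417 genes. HTSeq 0.6.0, TopHat2 2.0.12, Bowtie2 2.2.3 and the build mm9 are named in the submitters' processing notes, and their settings are not given in the sources used here. Gene positions are printed as deposited, and for 19540 of the 19595 genes they overlap the same gene ID in GENCODE M21, which is on GRCm38.

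From the counts, edgeR 4.0.16 gave TMM factors of 0.982 for the knockdown and 1.02 for the control library, fitted on all 19595 genes. The log2 fold is knockdown over control with a prior count of 0.5. CPM and ratios have no prior count, apart from the ratios compared across processing alternatives. The 14158 genes averaging 1 CPM or more were kept. No test was made with 1 library per group, and 2-fold was the fixed rule of size. Ratios have exact conditional binomial (Clopper-Pearson) 95% intervals and levels exact Poisson ones. A floor of 3 counts is 0.190 CPM in the knockdown and 0.178 CPM in the control library. Exon lengths came from GENCODE M21, matched by gene ID for 19557 genes. Upstream sequences came from RefSeq (GRCm38.p6), which had entries for 8 of the 10 genes. The calculation was tested on simulated data.

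The members, lists and alternatives were chosen with earlier results of these data known. All 10 members are named. Of each pathway list, genes past 2-fold and the most abundant gene are named, and of each cell type list the 2 most abundant genes and those at 0. Single values of some genes that this rule takes are not reported here. Other named genes are marked as chosen after their values were seen. Alternatives were DESeq2 1.42.0 size factors, total-count scaling, the authors' CPM, other expression minimums, a prior count of 5, a 1.5-fold threshold and, added after seeing the data, removal of the trend with exon length and GC content.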

Additional observations from a re-analysis of the deposited data

How the results depend on the processing

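Across 5 alternatives of scaling, prior count and length or GC correction, 48 of 50 values of the members' ratios stayed inside their counting interval and none of the 4 members past 2-fold changed direction. The ratio of Bmp4 ranged over the alternatives between 12.4 and 16.2, that of Id4 between 3.92 and 4.19, that of Bmpr1b between 2.08 and 2.24 and that of Bmp6 between 0.163 and 0.214. The 2 exceptions came from removal of the trend with exon length and GC content, with 1.04 for Bmpr2, against 0.948, and 1.14 for Id3. That correction gave a median log2 fold of 0.23 for the 10 members. Bmp4 and Bmp6 rest on 13 and 15 counts in one library and fall under a minimum of 10 CPM, which left 2 members higher and 0 lower. Over all genes, a minimum of 10 CPM gave 500 higher and 496 lower, no minimum 2286 and 2475, and the 1.5-fold threshold 2259 and 2218, against 1082 and 1098. Over all pathway lists together, 6 genes past the minimum were higher and 16 lower, beside 7.64% and 7.76% of all genes. In the order described above, the lists held 5, 15, 10, 6, 13, 6, 12 and 9 genes past the minimum. With a minimum of 10 CPM, which fewer genes pass, the pathway counts became 5 higher and 5 lower. At 1.5-fold they were 15 higher and 22 lower, beside 2259 and 2218 of all 14158 genes. The median of the TGF-beta and activin list was -0.27 without a minimum, and that of the secreted antagonists was 0.38 with a minimum of 10 CPM, since the minimum decides which genes are in a list. Of 205 other list counts and medians under alternatives, 179 stayed within their tolerance. No paired analysis was possible because each group has 1 library. For the same reason no library could be left out.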
